A study of Mus musculus with 18 samples.

Results

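Gkn3, Gja4, Gja5, Bmx, Sema3g, Unc5b, Cxcl12, Fbln5 and Mgp are markers of arterial endothelial cells that lie outside the Notch pathway. They were taken from the count table by symbol, matched through the Ensembl identifier, and made up 9 of its 57010 rows. All 9 passed the filter on low counts, among 17531 genes tested. Messenger RNA had been sequenced from isolated mouse brain endothelial cells, 1 library per sample, at postnatal day 57. Every animal carried Pdcd10 fl/fl alleles and an Aldh1l1-EGFP/Rpl10a transgene, which tags ribosomes of astrocytes. Pdcd10 encodes CCM3, whose loss causes cerebral cavernous malformations. The KO genotype also had Slco1c1-iCreERT2, a tamoxifen-dependent Cre whose driver is active in brain endothelium, and 50 µg of 4-hydroxytamoxifen was injected at postnatal day 1. The flox genotype lacked the Cre, and no injection is recorded for its libraries. KO and flox thus differ in Cre and in recorded injection as well as in Pdcd10. The study also mentions Cre carriers without injection among its littermate controls, and the labels do not say whether any flox library came from one. The groups were hypoxia KO (5 libraries; 12% oxygen for 7 days), hypoxia flox (4 libraries; the same oxygen), normoxia KO (5 libraries; 21% oxygen) and normoxia flox (4 libraries; 21% oxygen). The labels number the samples but do not say that each came from its own animal, so p-values measure the spread between these samples. Normoxia KO 4, normoxia flox 3 and normoxia flox 4 carried both Xist and Y-linked transcripts, so each may hold RNA of more than 1 animal.

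Blood vessels of the brain form a continuum of arterial, capillary and venous segments, and the endothelium of each segment has its own set of transcripts. Arterial endothelial cells are joined by connexin channels, secrete guidance and chemokine signals, and lie on an elastic matrix next to contractile smooth muscle cells. Cerebral cavernous malformations are clusters of enlarged, leaky vessels of capillary and venous type. In RNA from whole preparations, fewer arterial cells and less arterial RNA per cell cannot be told apart.

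The libraries held 17.9 to 31.2 M counts. Pdcd10 stood at 18.2 to 25.3 CPM in hypoxia KO and 37.7 to 60.9 CPM in hypoxia flox, and at 16.3 to 20.1 CPM in normoxia KO and 30.6 to 45.0 CPM in normoxia flox, where CPM are counts scaled to a common library size by TMM. The pan-endothelial genes Pecam1 (1031.5 to 2007.0 CPM) and Cldn5 (1313.1 to 2407.3 CPM) were abundant in all 18 libraries. Normoxia KO 4 and normoxia flox 4 also carried the neuronal transcript Syt1 (471.0 and 837.6 CPM), against at most 8.68 CPM elsewhere. The same libraries carried astrocyte transcripts, with 8 marker genes summing to 1051 and 1880.3 CPM, against at most 242.5 CPM elsewhere. Oligodendrocyte transcripts were found in all 18 libraries. Their 6 marker genes summed to 683.5 to 4533.9 CPM in hypoxia KO and to 656.2 to 2371.8 CPM in hypoxia flox. The sums were 623.7 to 4920.3 CPM in normoxia KO and 889.9 to 5115.4 CPM in normoxia flox. Sex is not labelled; the 4 hypoxia flox libraries and hypoxia KO 4 had Y-linked transcripts, the other 4 hypoxia KO libraries had Xist instead, and normoxia KO 4, normoxia flox 3 and normoxia flox 4 had both. Fos, an immediate early gene, was at 4308.3 to 5014.6 CPM in hypoxia KO 2 to 5 and at 475.4 CPM in hypoxia KO 1. In hypoxia flox it was at 221.0 to 3088.1 CPM. Normoxia KO 1, 2 and 5 had 5442.5 to 5734.4 CPM of Fos, and normoxia KO 4 and 6 had 570.4 and 761.9 CPM. Normoxia flox 1 had 4748.7 CPM, and normoxia flox 2 to 4 had 292.4 to 1325.6 CPM.

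Of the 9 arterial genes, 7 fell in KO endothelium in normoxia and 8 fell in hypoxia, and none rose. Over all genes tested, 7.03% fell and 9.54% rose in normoxia, and 11.0% fell and 11.4% rose in hypoxia. The 9 genes were chosen with earlier results of these data known, so these shares describe them and are not an independent test. The median log2 fold change of the 9 genes was -1.24 in normoxia and -1.48 in hypoxia, against medians over all genes of -0.02 and 0.00. Gkn3 had the lowest log2 fold change of the 17531 genes in both comparisons. Cxcl12 was the exception in both, and Mgp fell in hypoxia but did not pass in normoxia. A blocked fit of the normoxia pairs called 4 of the 9. With smooth muscle level as a covariate, 0 were called in normoxia and 3 in hypoxia. These fits, given after the single genes, also called fewer genes in all. Changes are log2 fold changes ± SE, KO minus flox or hypoxia minus normoxia, from edgeR's quasi-likelihood test with Benjamini-Hochberg adjusted p-values over all genes, called at an adjusted p under 0.05.

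**Figure D1:**
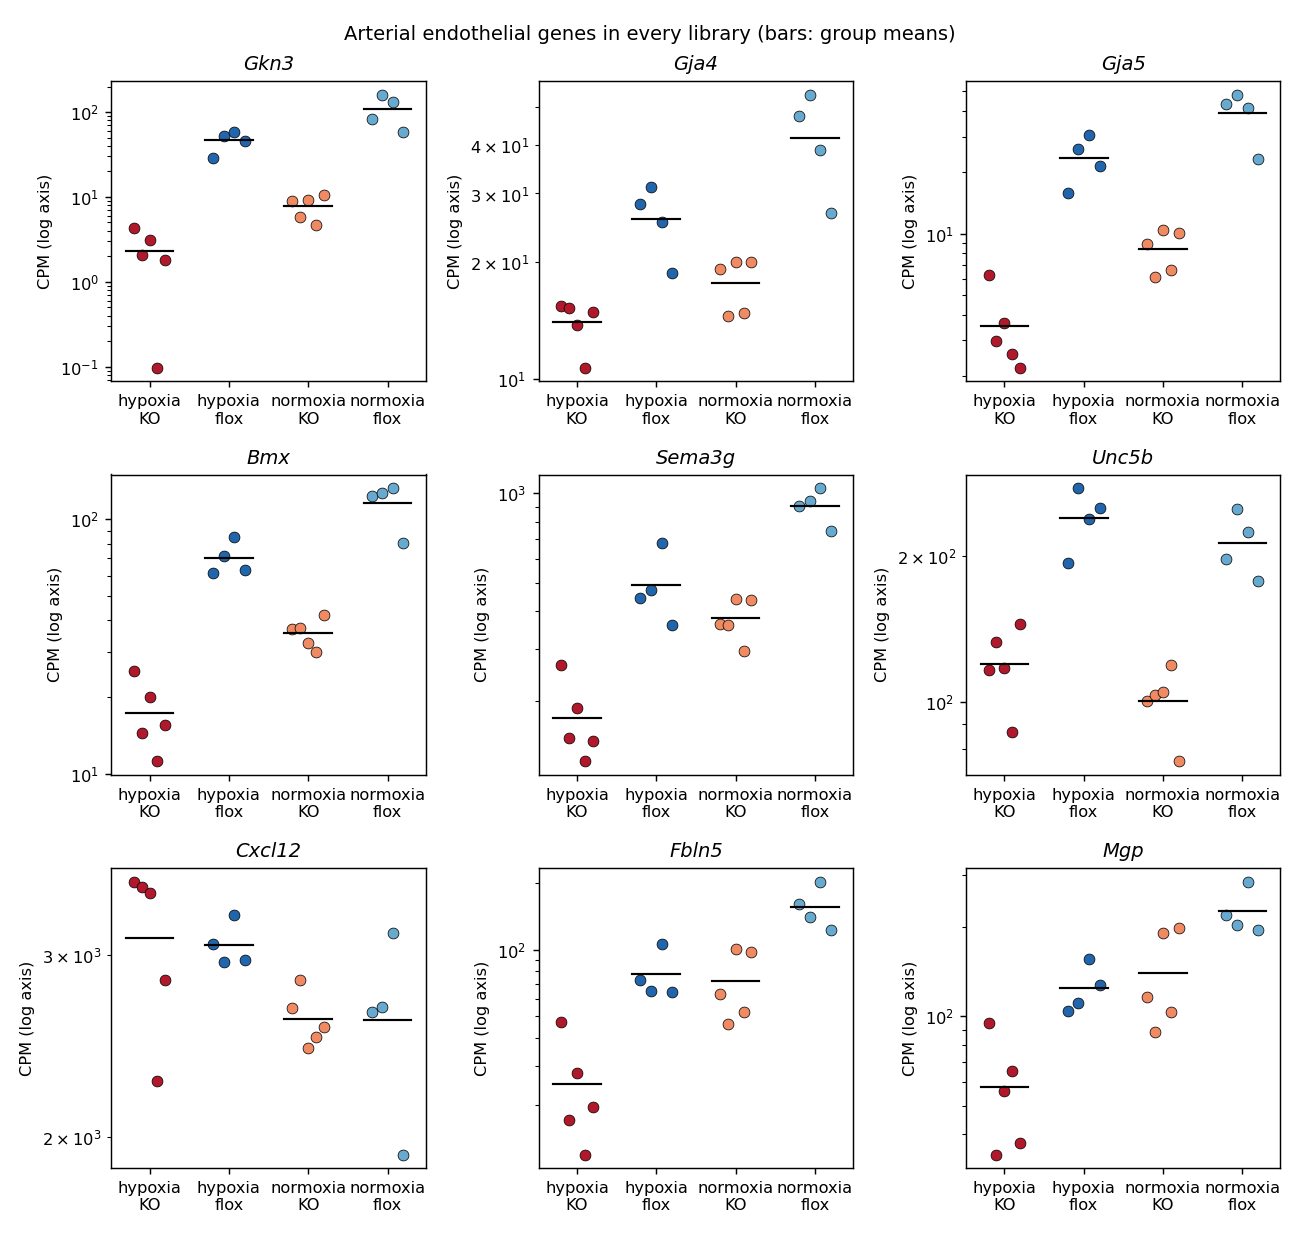
CPM of each arterial gene in every library on log axes, 1 point per library and a bar at each group mean (hypoxia KO and normoxia KO, n = 5; hypoxia flox and normoxia flox, n = 4). Gkn3, Gja5 and Bmx lie lower in every KO library than in any flox library at either oxygen level, whereas the Cxcl12 points of KO and flox intermix.

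Promoter sequence was at hand for 8 of the 9 genes (RefSeq, GRCm38.p6); Mgp has no entry. The stretches of 250 bases before the start site are shown for the 3 genes with the largest falls in KO and for Cxcl12, which did not pass, so the choice followed their values. Sequences run 5′ to 3′ on the gene's strand, and capitals mark TGGGAA (the RBPJ core), ACAAT (a SOX core) and CACCC (a KLF core) or their reverse complements. Gkn3 lies at chr6:87388936-87389185 (minus strand), Gja5 at chr3:97032152-97032401 (plus strand), Bmx at chrX:164258194-164258443 (minus strand) and Cxcl12 at chr6:117168285-117168534 (plus strand).
Gkn3: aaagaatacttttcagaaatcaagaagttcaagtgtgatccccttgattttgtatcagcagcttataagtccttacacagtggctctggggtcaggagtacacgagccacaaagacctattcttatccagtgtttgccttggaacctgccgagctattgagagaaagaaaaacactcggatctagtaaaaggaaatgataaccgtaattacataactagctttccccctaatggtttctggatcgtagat
Gja5: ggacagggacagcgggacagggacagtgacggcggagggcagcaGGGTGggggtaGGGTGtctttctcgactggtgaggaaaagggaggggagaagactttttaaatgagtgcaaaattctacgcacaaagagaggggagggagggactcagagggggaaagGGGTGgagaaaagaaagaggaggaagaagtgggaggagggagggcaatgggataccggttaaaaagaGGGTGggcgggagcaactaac
Bmx: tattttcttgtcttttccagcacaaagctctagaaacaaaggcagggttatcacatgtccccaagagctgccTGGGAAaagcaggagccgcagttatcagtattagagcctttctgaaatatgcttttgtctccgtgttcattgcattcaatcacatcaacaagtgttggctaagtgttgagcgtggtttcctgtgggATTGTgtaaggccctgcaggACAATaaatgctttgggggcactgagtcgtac
Cxcl12: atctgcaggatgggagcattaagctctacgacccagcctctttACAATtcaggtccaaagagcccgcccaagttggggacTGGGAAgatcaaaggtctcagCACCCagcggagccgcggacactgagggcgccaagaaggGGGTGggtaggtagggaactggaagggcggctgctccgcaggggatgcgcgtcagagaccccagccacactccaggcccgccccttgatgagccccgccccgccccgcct

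The printed Gkn3 stretch held none of the 3 cores, that of Gja5 held 4 CACCC matches, and those of Bmx and Cxcl12 each held a TGGGAA match. In windows of 300 bases, which add 50 bases after the start, TGGGAA was found on either strand in 4 of the 9 windows of the arterial genes (Fbln5 has 2 windows), and in 25.6% of all 32851 promoters. ACAAT was found in 5 of the 9 windows and 31.0% of all promoters, and CACCC in 4 of the 9 and 57.5%. The ETS core GGAA, which overlaps TGGGAA, was in 9 of the 9 windows and 96.0% of all promoters. These are letter matches, and no binding was measured.

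Gja4 and Gja5 encode gap junction connexins that couple arterial endothelial cells. Gja5 was at 8.87, 6.10, 10.4, 6.59 and 10.1 CPM in normoxia KO, and at 43.5, 48.2, 41.3 and 23.3 CPM in normoxia flox. In hypoxia it was at 6.25, 2.96, 3.64, 2.57 and 2.19 CPM in KO, and at 15.8, 26.2, 30.4 and 21.4 CPM in flox. The genotypes did not overlap at either oxygen level, and hypoxia KO 1 was the highest of its group. Gja5 fell in KO, with a change of -2.21 ± 0.28 in normoxia (adjusted p = 4.45e-05, or 0.0585 over the normoxia pairs with a replicate block) and of -2.73 ± 0.30 in hypoxia (adjusted p = 1.25e-05). The annotation of GRCm38 places an exon of Gpr89 on the opposite strand of a Gja5 exon, and the strand setting of the counting is not given, so reads of these genes may have been mixed.

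Gja4 had smaller fold changes than Gja5, a difference that was not tested. It was at 19.2, 14.5, 20.0, 14.8 and 20.0 CPM in normoxia KO, and at 47.5, 53.8, 38.8 and 26.8 CPM in normoxia flox. After hypoxia, Gja4 was at 15.4, 15.2, 13.8, 10.7 and 14.9 CPM in KO, and at 28.2, 31.1, 25.3 and 18.7 CPM in flox. Every KO library was again below every flox library of the same oxygen level. The change was -1.24 ± 0.19 in normoxia (adjusted p = 0.000227, or 0.104 with that block) and -0.89 ± 0.19 in hypoxia (adjusted p = 0.00359).

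Among the secreted factors, Gkn3, a gastrokine family gene known as an arterial marker in mouse brain, was close to absent in hypoxia KO. It stood at 8.92, 5.83, 9.30, 4.73 and 10.6 CPM in normoxia KO, and at 82.3, 160.4, 132.4 and 58.3 CPM in normoxia flox. In hypoxia it stood at 4.36, 2.05, 3.10, 0.0969 and 1.79 CPM in KO, and at 28.5, 52.7, 58.2 and 45.7 CPM in flox. The value of hypoxia KO 4 rests on 2 reads. Neither pair of groups overlapped. Gkn3 fell, with a change of -3.78 ± 0.50 in normoxia KO (adjusted p = 7.14e-05) and of -4.35 ± 0.53 in hypoxia KO (adjusted p = 4.65e-05). The mean of hypoxia KO was 2.10% of the normoxia flox mean, that of normoxia KO 7.27% and that of hypoxia flox 42.7%.

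Sema3g, a secreted class 3 semaphorin, was at 362.0, 360.5, 438.7, 294.0 and 437.9 CPM in normoxia KO, and at 906.7, 943.1, 1039.4 and 743.9 CPM in normoxia flox. After hypoxia, Sema3g was at 264.5, 150.1, 189.9, 125.2 and 146.5 CPM in KO, and at 443.3, 472.0, 679.5 and 361.1 CPM in flox. The genotypes were separate at both oxygen levels. The change was -1.26 ± 0.21 in normoxia (adjusted p = 0.000463) and -1.48 ± 0.21 in hypoxia (adjusted p = 0.000147).

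Cxcl12, the chemokine ligand of Cxcr4, had the highest RPKM of the 9 in every group mean. It was at 2665.2, 2837.4, 2436.4, 2499.0 and 2553.1 CPM in normoxia KO, and at 2643.2, 2671.6, 3153.4 and 1922.4 CPM in normoxia flox. The hypoxia libraries held 3531.9, 3489.6, 3444.7, 2265.9 and 2839.3 CPM in KO, and at 3076.4, 2954.0, 3282.1 and 2964.5 CPM in flox. The genotypes overlapped at both oxygen levels. The difference was 0.00 ± 0.14 in normoxia (adjusted p = 1.00) and 0.02 ± 0.14 in hypoxia (adjusted p = 0.941), so it was small beside the changes of the other 8 genes, with the SE as its limit.

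Bmx encodes a Tec family tyrosine kinase and Unc5b a receptor for netrins. Bmx was at 37.0, 37.2, 32.7, 30.0 and 42.0 CPM in normoxia KO, and at 122.6, 126.7, 132.1 and 80.5 CPM in normoxia flox. In hypoxia it was at 25.4, 14.5, 20.0, 11.2 and 15.6 CPM in KO, and at 61.4, 71.6, 84.7 and 63.2 CPM in flox. The lowest flox library stood above the highest KO library at each oxygen level. Bmx fell in KO, with a change of -1.69 ± 0.20 in normoxia (adjusted p = 1.86e-05) and of -2.02 ± 0.20 in hypoxia (adjusted p = 5.97e-06).

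Unc5b was at 100.7, 103.2, 104.8, 119.1 and 75.5 CPM in normoxia KO, and at 197.2, 249.9, 224.2 and 177.6 CPM in normoxia flox. After hypoxia, Unc5b was at 116.3, 132.9, 117.4, 86.8 and 144.7 CPM in KO, and at 193.6, 275.7, 238.0 and 250.4 CPM in flox. Here too the genotypes did not overlap. The change was -1.08 ± 0.15 in normoxia (adjusted p = 0.000119) and -1.0 ± 0.15 in hypoxia (adjusted p = 0.000256).

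Fbln5 and Mgp encode proteins of the vessel matrix. Fbln5, an elastic fibre protein, was at 63.4, 46.3, 100.9, 52.3 and 97.4 CPM in normoxia KO, and at 160.9, 139.8, 202.5 and 122.0 CPM in normoxia flox. In hypoxia it was at 47.1, 17.1, 27.8, 11.9 and 19.5 CPM in KO, and at 73.0, 65.3, 106.4 and 64.3 CPM in flox. The groups did not overlap, but the normoxia KO libraries spread widely. Fbln5 fell in KO, with a change of -1.12 ± 0.34 in normoxia (adjusted p = 0.0322, or 0.114 with the block over pairs) and of -1.65 ± 0.34 in hypoxia (adjusted p = 0.00306). The normoxia call was lost when any 1 of normoxia flox 1, 2 or 3 or normoxia KO 1, 2 or 5 was left out (adjusted p from 0.0509 to 0.0935).

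Mgp encodes matrix Gla protein, an inhibitor of vessel calcification. It was at 116.5, 88.7, 191.3, 103.7 and 199.6 CPM in normoxia KO, and at 220.6, 202.9, 285.2 and 195.9 CPM in normoxia flox. After hypoxia, Mgp was at 95.3, 34.1, 56.0, 65.2 and 37.3 CPM in KO, and at 104.5, 111.0, 156.6 and 127.3 CPM in flox. Normoxia KO 6 exceeded normoxia flox 4, and the hypoxia groups did not overlap. The difference was -0.69 ± 0.29 in normoxia (adjusted p = 0.122), and Mgp fell in hypoxia, with a change of -1.12 ± 0.29 (adjusted p = 0.0123).

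Counted by library, 7 of the 9 genes had no overlap between KO and flox in normoxia, all lower in KO, against 6.09% of all genes. In hypoxia 8 of the 9 had none, all lower in KO, against 10.3% of all genes. In normoxia, the deviations of KO and flox libraries with equal replicate numbers correlated for each of the 3 numbers, though normoxia KO 2 correlated with normoxia flox 2 only at r = 0.294 and more with normoxia flox 1. A fit of the normoxia pairs 1, 2 and 4 with the replicate number as a block called 4 of the 9: Gkn3, Bmx, Sema3g and Unc5b. In that fit Gja5 stood at -2.19 ± 0.38, Gja4 at -1.26 ± 0.30 and Fbln5 at -1.12 ± 0.28, which were not called. With the hypoxia libraries kept in the blocked fit, an alternative added after seeing the data, 6 of the 9 passed and Fbln5 did not (adjusted p = 0.162).

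**Figure D2:**
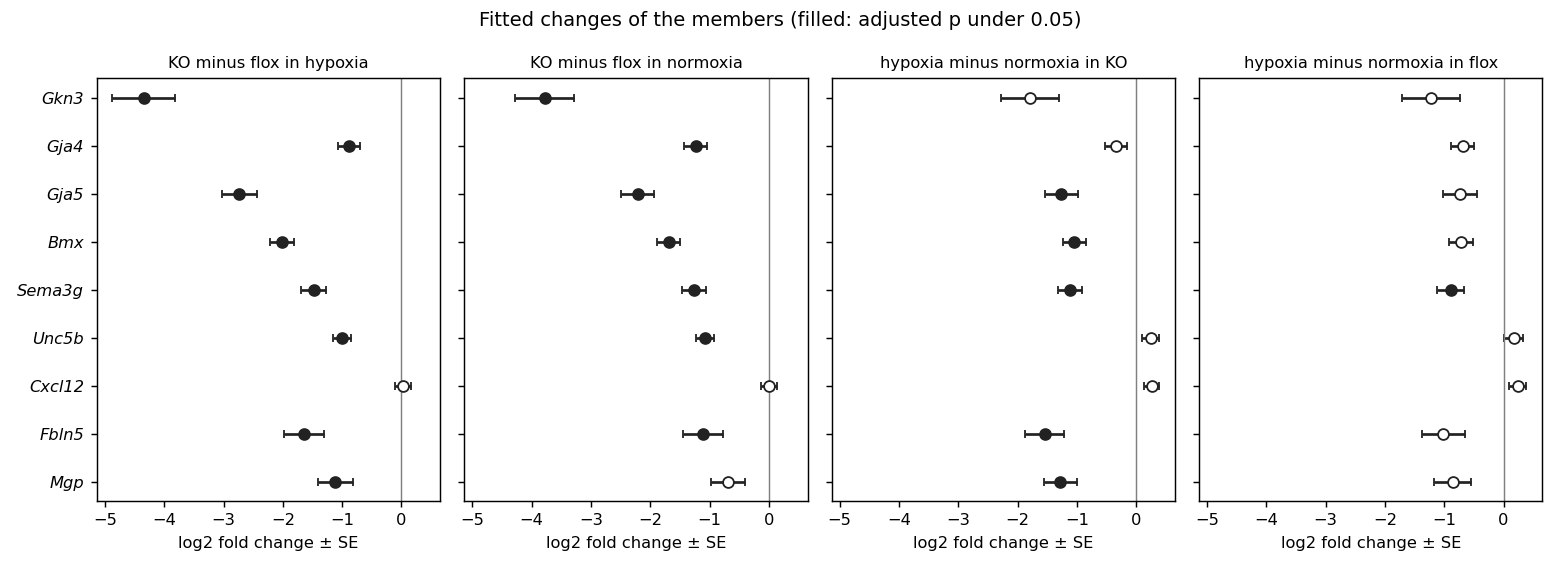
Fitted log2 fold change ± SE of each arterial gene in the 4 comparisons (filled circles, adjusted p under 0.05). In KO minus flox, 8 genes are filled in hypoxia and 7 in normoxia, Gkn3 lies farthest from 0, and Cxcl12 lies at 0.

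The normoxia change did not differ detectably from the hypoxia change for any of the 9 genes. The interaction, the genotype change in hypoxia minus that in normoxia, ranged from -0.57 ± 0.68 for Gkn3 to 0.35 ± 0.27 for Gja4, with adjusted p from 0.993 to 0.995. With edgeR it called 0 of the 9, and 0 of them had an unadjusted p under 0.05, against calls for 0.445% of all genes. It also called 0 of the 9 in each of 33 alternative fits, DESeq2 among them.

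Fewer of the 9 genes passed between hypoxia and normoxia than between KO and flox, and these comparisons use the same libraries as the genotype comparisons. In KO, 5 of the 9 genes fell in hypoxia, against 0.770% of all genes, with a median of -1.11 against -0.03 over all genes. Fbln5 changed by -1.55 ± 0.33 (adjusted p = 0.0295), Mgp by -1.28 ± 0.28 (adjusted p = 0.0322) and Gja5 by -1.26 ± 0.28 (adjusted p = 0.0355). Sema3g changed by -1.11 ± 0.20 (adjusted p = 0.0121) and Bmx by -1.04 ± 0.19 (adjusted p = 0.0132). Gkn3 had the largest difference but a wide error, -1.79 ± 0.49 (adjusted p = 0.0926). Unc5b stood at 0.25 ± 0.14 (adjusted p = 0.454), Cxcl12 at 0.26 ± 0.13 (adjusted p = 0.375) and Gja4 at -0.34 ± 0.18 (adjusted p = 0.406). Gkn3, Bmx and Sema3g had no overlap between hypoxia KO and normoxia KO, a fall shared by 2.14% of all genes. The count of 5 was 0 without hypoxia KO 2, 2 without normoxia KO 1, 4 or 6 or hypoxia KO 4 or 5, and 3 without hypoxia KO 3. Without the 3 libraries that carried Xist together with Y-linked RNA, a choice made after seeing the data, it was 2.

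In flox, Sema3g was the 1 gene of the 9 that fell in hypoxia, with a change of -0.89 ± 0.22 (adjusted p = 0.0378), against 0.462% of all genes, with a median of -0.74 against -0.03 over all genes. Gkn3 (-1.23 ± 0.49, adjusted p = 0.22), Fbln5 (-1.02 ± 0.36, adjusted p = 0.185), Mgp (-0.86 ± 0.31, adjusted p = 0.194), Gja5 (-0.74 ± 0.29, adjusted p = 0.218), Bmx (-0.72 ± 0.21, adjusted p = 0.087) and Gja4 (-0.69 ± 0.20, adjusted p = 0.0843) did not pass. Unc5b stood at 0.17 ± 0.16 (adjusted p = 0.667) and Cxcl12 at 0.24 ± 0.14 (adjusted p = 0.421). Gkn3, Sema3g, Fbln5 and Mgp had no overlap between hypoxia flox and normoxia flox, all lower in hypoxia, against 3.15% of all genes. The count of 1 was 0 without any 1 of normoxia flox 1, 2 or 3, hypoxia flox 2, 3 or 5, normoxia KO 1 or 2, or hypoxia KO 3, was 2 without hypoxia KO 1 or 4, and was 3 without normoxia flox 4. With sex signals as a covariate it was 0.

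Between genes, levels were compared in the deposited RPKM, which divide by gene length. In hypoxia KO the order of the means was Cxcl12 (366.1 RPKM), Mgp (46.9), Sema3g (37.4), Unc5b (18.3), Gja4 (7.98), Bmx (5.44), Fbln5 (3.50), Gkn3 (2.60) and Gja5 (0.600). The libraries of Mgp and Sema3g overlapped, as did each neighbouring pair from Gja4 to Gja5. In normoxia KO the means were Cxcl12 307.8 RPKM, Mgp 115.2, Sema3g 81.1, Unc5b 15.5, Bmx 11.2, Gja4 10.2, Fbln5 10.2, Gkn3 8.96 and Gja5 1.44 RPKM. Neighbours overlapped there except Cxcl12 with Mgp, Sema3g with Unc5b and Gkn3 with Gja5.

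In hypoxia flox the order was Cxcl12 (400.0 RPKM), Sema3g (114.7), Mgp (112.2), Gkn3 (57.8), Unc5b (40.9), Bmx (24.2), Gja4 (16.3), Fbln5 (11.9) and Gja5 (4.35). Overlap between neighbours was seen for Sema3g with Mgp, Gkn3 with Unc5b and Gja4 with Fbln5. In normoxia flox it was Cxcl12 (326.4 RPKM), Sema3g (205.4), Mgp (195.7), Gkn3 (131.1), Bmx (38.4), Unc5b (34.9), Gja4 (25.4), Fbln5 (23.2) and Gja5 (7.0), and only Gkn3 with Bmx and Fbln5 with Gja5 were separate. Gkn3 thus had rank 8 of the 9 in both KO groups and rank 4 in both flox groups.

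Across the 18 libraries, the log2 CPM of each of the 9 genes was centred on its mean and divided by its SD. On this scale, 6 of the genes followed the mean of the other 8 with a Pearson r of 0.898 or more: Bmx (0.978), Gkn3 (0.974), Gja5 (0.973), Sema3g (0.941), Gja4 (0.903) and Fbln5 (0.898). Mgp (0.762) and Unc5b (0.683) followed it less, and Cxcl12 did not (-0.100). These are descriptions over libraries that also share genotype and preparation. Among 12519 other genes, the 8 whose log2 CPM was most like the mean of the 9 on that scale included Crispld1 (r = 0.986), Egfl8 (0.981), Antxr1 (0.978), Lama3 (0.978), Acacb (0.976), Olfml2a (0.975) and Col14a1 (0.973). Since the mean of the 9 genes was lower in KO than in flox at each oxygen level, a gene chosen for its likeness to that mean tends to differ by genotype too. The changes of these genes are therefore not given as results of their likeness. Egfl8 is also on the list of other arterial markers, and its change is given there as a member of that list.

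Other arterial markers had falls with smaller medians. Of 18 such genes, 7 fell and 0 rose in normoxia KO (median -0.56), and 9 fell and 0 rose in hypoxia KO (median -0.79). Efnb2, the arterial ephrin ligand, changed by -1.77 ± 0.26 in normoxia (adjusted p = 0.000169) and by -1.42 ± 0.26 in hypoxia (adjusted p = 0.0011). Egfl8 changed by -1.75 ± 0.23 and -2.11 ± 0.24, and the growth factor gene Tgfb2 by -1.36 ± 0.14 and -1.21 ± 0.14, in that order of oxygen levels. Tm4sf1 fell in normoxia (-0.85 ± 0.14) and stood at -0.25 ± 0.14 in hypoxia (adjusted p = 0.225). With the same 18 genes, hypoxia against normoxia gave 4 falls in KO and, by edgeR, 0 calls in flox, where 7 had an unadjusted p under 0.05.

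Of 10 genes of the Notch pathway, which sets arterial fate, 4 fell in normoxia KO (median -0.24), and 1 fell and 1 rose in hypoxia KO (median -0.13). Hey1, a Notch target, changed by -1.92 ± 0.22 in normoxia and by -1.65 ± 0.22 in hypoxia. Hey2 (-1.02 ± 0.26), Notch1 (-0.46 ± 0.13) and Jag2 (-0.34 ± 0.10) fell in normoxia and did not pass in hypoxia.

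The other endothelial lists were mixed. Of 12 venous genes, 2 fell and 2 rose in normoxia KO (median 0.19), and 4 fell in hypoxia KO (median 0.07). Vwf, the clotting factor carrier, rose by 1.18 ± 0.24 in normoxia and stood at 0.23 ± 0.24 in hypoxia (adjusted p = 0.538), while the protease gene Ctsc changed by -1.57 ± 0.22 and -1.49 ± 0.22. Of 11 capillary genes, 3 fell and 1 rose at each oxygen level (medians -0.22 and -0.28). Among 12 pan-endothelial genes, 1 fell and 1 rose at each oxygen level (medians 0.04 and -0.07). Their changes ranged from -0.62 to 0.33 in normoxia and from -0.42 to 0.38 in hypoxia. The gene that fell in normoxia was Flt1, and it had a smaller p there than Pecam1. Pecam1 rose by 0.33 ± 0.09 in normoxia and by 0.38 ± 0.09 in hypoxia.

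**Figure D3:**
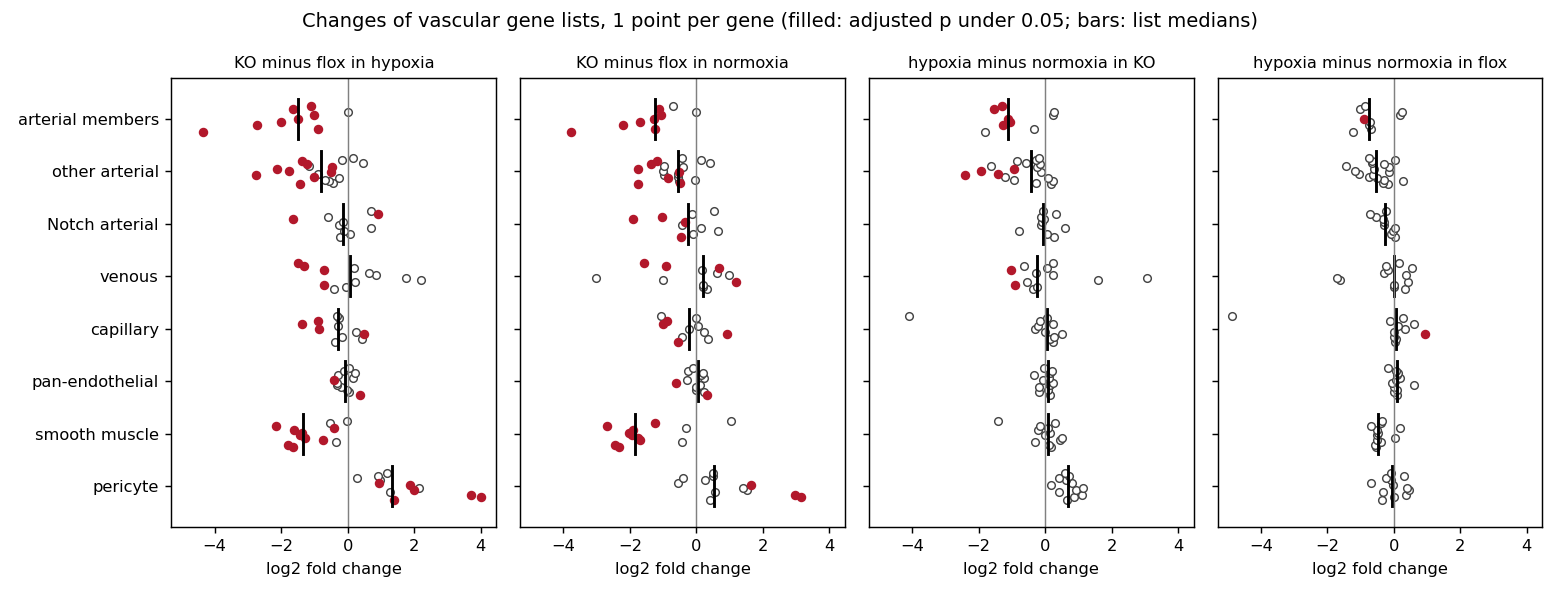
Log2 fold change of each gene of 8 vascular lists in the 4 comparisons, 1 point per gene (filled, adjusted p under 0.05; bars, list medians). In KO minus flox most arterial and smooth muscle genes lie to the left of 0, most pericyte genes to the right, and the pan-endothelial genes close to 0.

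Smooth muscle transcripts fell together with the arterial genes. Of 12 contractile genes, 9 fell and 0 rose in KO at each oxygen level, with medians of -1.84 in normoxia and -1.34 in hypoxia. Acta2, smooth muscle actin, changed by -2.34 ± 0.23 in normoxia (adjusted p = 3.04e-06) and by -1.65 ± 0.23 in hypoxia (adjusted p = 0.00011). Myh11, smooth muscle myosin, changed by -2.45 ± 0.30 (adjusted p = 2.99e-05) and by -1.79 ± 0.29 (adjusted p = 0.000497). The summed level of the 12 genes was 299.5 to 486.4 CPM in hypoxia KO and 573.1 to 942.8 CPM in hypoxia flox, and 335.5 to 384.2 CPM in normoxia KO and 732.6 to 1300.6 CPM in normoxia flox, with none of the 12 at 0 in any library. Between hypoxia and normoxia, 0 of the 12 passed edgeR's test in either genotype, while 2 in KO and 5 in flox had an unadjusted p under 0.05.

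With the mean smooth muscle level as a covariate, the genotype calls over all 17531 genes fell to 318 in normoxia and 369 in hypoxia. The arterial calls fell to 0 of 9 in normoxia (median -0.22), where 3 had an unadjusted p under 0.05 by edgeR. In hypoxia they fell to 3 of 9 (median -0.75). The 3 were Gkn3 (-3.20 ± 0.66, adjusted p = 0.0184), Gja5 (-1.83 ± 0.37, adjusted p = 0.0167) and Bmx (-1.29 ± 0.24, adjusted p = 0.00986). No longer called in hypoxia were Unc5b (-0.81 ± 0.26, adjusted p = 0.142), Mgp (-0.75 ± 0.46, adjusted p = 0.509), Sema3g (-0.68 ± 0.26, adjusted p = 0.237), Fbln5 (-0.58 ± 0.42, adjusted p = 0.572) and Gja4 (-0.03 ± 0.23, adjusted p = 0.964). In normoxia Gkn3 stood at -2.04 ± 0.88 with the covariate (adjusted p = 0.315), and Fbln5 turned to 0.36 ± 0.53 (adjusted p = 0.802). The mean log2 CPM of the smooth muscle genes did not overlap between KO and flox at either oxygen level, so the covariate and the genotype cannot be told apart with these libraries. The 5 calls of hypoxia against normoxia in KO were 5 with this covariate.

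**Figure D4:**
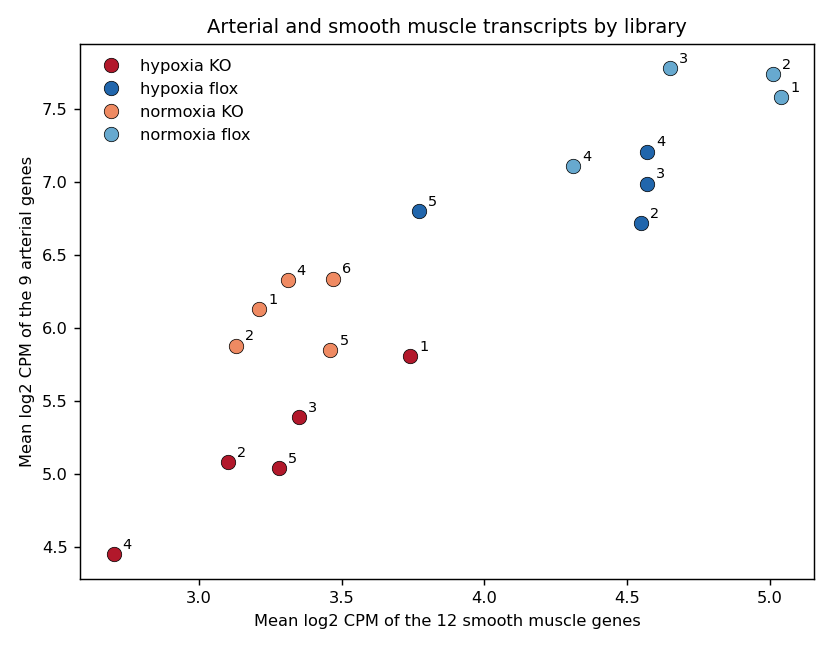
Mean log2 CPM of the 9 arterial genes against the mean log2 CPM of the 12 smooth muscle genes, 1 numbered point per library. KO libraries lie at the lower left and flox libraries at the upper right, and hypoxia KO lies below normoxia KO in arterial level at a like smooth muscle level.

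Pericyte genes moved the other way. Of 12, 3 rose in normoxia KO (median 0.53) and 6 in hypoxia KO (median 1.35), and 0 fell. Kcnj8, a potassium channel subunit of pericytes, rose by 3.16 ± 0.46 in normoxia and by 4.03 ± 0.47 in hypoxia. Their summed level was 1330.0 to 2307.0 CPM in hypoxia KO and 227.9 to 1147.5 CPM in hypoxia flox, and 792.8 to 1441.3 CPM in normoxia KO and 412.0 to 1390.9 CPM in normoxia flox, with none at 0. With the mean pericyte level as a covariate, chosen after seeing the data, Fbln5 (-0.97, adjusted p = 0.177) and Mgp (-0.31, adjusted p = 0.566) were no longer called in hypoxia. The part of these cells in the arterial changes was not tested beyond these fits.

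Some markers of fibroblasts and of microglia and macrophages also passed between the genotypes, more of them in hypoxia. The interaction called 0 genes of either list, so a difference between the oxygen levels was not detected. Of 9 fibroblast genes tested, 1 rose in normoxia KO (median 0.05) and 3 rose in hypoxia KO (median 1.06), among them the collagen gene Col3a1 (2.76 ± 0.28 and 2.83 ± 0.29). Their summed level was 79.6 to 189.1 CPM in hypoxia KO and 21.8 to 476.4 CPM in hypoxia flox, and 72.6 to 171.8 CPM in normoxia KO and 33.1 to 960.8 CPM in normoxia flox, with Dpt at 0 in some libraries of each group and Slc6a13 in hypoxia flox. The highest fibroblast sums of the flox groups came from single libraries, normoxia flox 1 and hypoxia flox 3. Of 8 microglia and macrophage genes, 2 rose in hypoxia KO (median 2.49) and 0 in normoxia KO by edgeR (median -0.69; 1 at an unadjusted p under 0.05). Their summed level was low, 12.8 to 88.0 CPM in hypoxia KO and 2.84 to 13.5 CPM in hypoxia flox, and 8.21 to 78.3 CPM in normoxia KO and 2.39 to 140.9 CPM in normoxia flox. The highest normoxia sums of this list were in normoxia KO 4 and normoxia flox 4, the libraries with neuronal transcripts. Aif1 was at 0 in at least 1 normoxia library of each genotype. Of 6 oligodendrocyte genes, edgeR called 0 in normoxia KO (median 0.54) and 0 in hypoxia KO (median 1.22). With the first principal component of the neuron, astrocyte, oligodendrocyte, fibroblast and microglia and macrophage lists as a covariate, 7 of the 9 arterial genes fell in normoxia KO and 8 in hypoxia KO.

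The genotype calls were also set against the other features of the libraries. With immediate early genes as a covariate, 7 of the 9 genes fell in normoxia KO and 8 in hypoxia KO. The counts were the same with sex signals as a covariate and without the libraries that carried neuronal transcripts. Over all alternative fits, the genotype calls among all genes ran from 318 to 3889 in normoxia and from 369 to 5562 in hypoxia. Hypoxia KO 4, which shared the Y-linked pattern of the hypoxia flox libraries, had 0.0969 CPM of Gkn3 (2 reads), 2.57 CPM of Gja5 and 11.2 CPM of Bmx. Each value was below all 4 hypoxia flox libraries, but this is 1 library. The other 4 hypoxia KO libraries had Xist instead, so sex and genotype nearly coincide in hypoxia. The part of sex in the falls was not tested beyond the covariate fit. Hypoxia KO 1 had the lowest Fos, the highest smooth muscle sum (486.4 CPM) and the lowest pericyte sum (1330.0 CPM) of its group. It also had the highest level of 8 of the 9 genes in hypoxia KO, all but Unc5b, and for these genes other than Cxcl12 it was below all 4 hypoxia flox libraries. With the immediate early covariate, hypoxia against normoxia gave 4 calls in flox (Bmx, Sema3g, Fbln5 and Mgp), against 1 without it.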

How the data were processed

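Per the submitters' processing notes, reads were aligned with HISAT2 to GRCm39 and handled with edgeR; versions, counting method and strand setting are not given in the sources used here. The deposited read counts per Ensembl gene were used for tests and CPM, and the authors' deposited RPKM for levels between genes. Symbols came from the gene tables at hand. The arterial genes and gene lists were chosen with earlier results of these data known. In R 4.3.3 with edgeR 4.0.16, genes passing filterByExpr (17531) were TMM-scaled and all 18 libraries fitted in 1 model of 4 groups (glmQLFit robust, legacy=FALSE; quasi-likelihood F test; Benjamini-Hochberg adjustment within each comparison; threshold 0.05). SE was taken as the size of the log2 fold change over the root of F. Log2 CPM used a prior count of 2. Fits were tested on simulated counts.

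All 9 genes are named, with Pdcd10, 6 genes of other cells or endothelium, up to 4 genes per list with the smallest adjusted p in normoxia, and the 8 genes most like the arterial mean with log2 CPM averaging 1 or more, of which 1 is not reported here. Deviations from group means of libraries with equal replicate numbers correlated across genes with r of 0.579, 0.294 and 0.847 in normoxia, where all 3 pairs were above the limit set for pairing, and with -0.339 to 0.158 in hypoxia, where they were not. Normoxia KO 2 correlated best with normoxia flox 1. The pair with 0.847 is the one whose libraries both carry neuronal transcripts. No libraries held identical counts.

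Alternatives were RLE size factors, no filter, a filter of 1 CPM in 4 libraries, DESeq2 1.42.0, the legacy fit, only the groups compared, limma-trend (limma 3.58.1) on RPKM plus 0.1, replicate blocks, covariates for smooth muscle, other cells, immediate early genes and sex signals, and leaving out libraries. Added after seeing the data were the fits without libraries with both sex signals, with a pericyte covariate, with the smooth muscle covariate and without the neuron-marker libraries, and with a block over normoxia pairs that kept the hypoxia libraries.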

Additional observations from a re-analysis of the deposited data

Results flagged for a closer look

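Of 36 combinations of an arterial gene and a group, 2 held a library far from the rest of its group by Dixon's test on log2 CPM, where chance alone marks about 1 in 20 groups. Gkn3 was lowest in hypoxia KO 4, at 0.0969 CPM from 2 reads, against 1.79 to 4.36 CPM in the other hypoxia KO libraries. Bmx was lowest in normoxia flox 4, one of the libraries with neuronal transcripts, at 80.5 CPM, against 122.6 to 132.1 CPM in the other normoxia flox libraries.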

How the results depend on the processing

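Depth did not limit the abundant genes, but Gkn3 and Gja5 rest on as few as 2 and 43 reads in single hypoxia KO libraries. The genotype counts, 7 of 9 in normoxia and 8 of 9 in hypoxia, were 6 to 7 and 8 to 8 when each library was left out in turn. With the smooth muscle covariate they were 0 (median -0.22) and 3 (median -0.75), and with that covariate and without the neuron-marker libraries, added after seeing the data, 0 (median -0.51) and 3 (median -0.78). Fbln5 in normoxia reversed to 0.36 and 0.27 in these fits. The cause was not tested.

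With the replicate number as a block, the normoxia count was 4 over the normoxia pairs alone and 6 over all groups, and the hypoxia count was 8 in both. The block over all groups gave 0 calls for hypoxia against normoxia in flox and 1 in KO. Beside Gja4, Gja5 and Fbln5 in normoxia, these blocks changed no genotype call of the 9 genes.

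For hypoxia against normoxia in flox, the count of 1 was 0 with no filter, limma-trend, the smooth muscle covariate, the same without the neuron-marker libraries, and the sex covariate; 2 with only the groups compared and with the other-cell covariate; 3 with DESeq2 and without the neuron-marker libraries; 4 with the immediate early covariate; and 0 to 3 when each library was left out. In KO, the count of 5 was 2 with no filter, 1 with only the groups compared, 3 without the neuron-marker libraries, 2 without libraries with both sex signals, 2 with the pericyte covariate, and 0 to 6 when each library was left out.

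Over all genes, 2905 calls in normoxia became 1793 (block over all groups), 701 (block over pairs), 1751 (pairs with hypoxia libraries kept), 318 (smooth muscle covariate) and 546 (the same without neuron-marker libraries). The 3916 calls in hypoxia became 369, 762 and 1745 with the smooth muscle covariate, the same without neuron-marker libraries, and the pericyte covariate. Hypoxia against normoxia gave 492 in flox, or 814 with DESeq2 and 938 with the immediate early covariate, and 260 in KO, with 43 to 607 over the alternatives. The interaction gave 78, with 3 to 143.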
